A study of Mus musculus with 4 samples.

Results

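The cytokines of the interleukin-10, interleukin-12 and interleukin-6 families and 3 of their receptor genes were examined in macrophages that lack MyD88. The 10 genes were Il10, Il12a, Il12b, Il23a, Il27, Ebi3, Il6, Il10ra, Il10rb and Il6ra. They were found by symbol among the probe sets of the array, where a probe set is a group of short probes aimed at 1 transcript, and only probe sets with a single symbol were used. This gave 14 probe sets for 9 of the genes, out of 45037 probe sets other than controls. Il27 was not analysed here.

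Interleukin-6 is a secreted cytokine that binds its receptor chain (Il6ra) together with the shared signalling chain gp130 (Il6st) and activates the transcription factor STAT3. Interleukin-10 acts through Il10ra and Il10rb, also by way of STAT3, and restrains inflammatory gene expression in macrophages. The interleukin-12 family is built of paired subunits. Il12a with Il12b forms interleukin-12, Il23a with Il12b forms interleukin-23, and Il27 with Ebi3 forms interleukin-27. Macrophages that meet microbial products are a known source of these cytokines, and most Toll-like receptors signal to their genes through the adaptor MyD88.

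All cells were MyD88 -/- macrophages grown from mouse bone marrow for 6 days with recombinant human M-CSF. In 1 group (2 arrays) the cells were left unstimulated (0 min), and in the other (2 arrays) they were given 100 ug/ml zymosan for 120 min. Zymosan, prepared from the cell walls of yeast, is recognised by the lectin Dectin-1 and by Toll-like receptor 2. The comparison asks what zymosan changes in cells without MyD88, and no array of wild-type cells was analysed here. The labels do not name separate mice or cultures, so a p-value reflects only how far these arrays vary, and that variation may be technical.

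The values are RMA expression values on the log2 scale, and differences are zymosan minus unstimulated. An interval of 16 days lay between the processing of the first and second unstimulated array, and both zymosan arrays were processed 153 days after the first. The scanner's settings files also record 1 operator and project for both unstimulated arrays and another for both zymosan arrays, and the titles of the unstimulated arrays carry LPS and PIC, those of the zymosan arrays ZYM. Throughout, effects of processing day, operator, project or experiment and of zymosan therefore cannot be told apart. The same holds for the 120 min in culture, since no array of unstimulated cells at 120 min was present. All 8 macrophage markers looked for (among them Adgre1, Csf1r and Cd68) were at or above the filter's level on every array, and 4 of them were lower with zymosan. Their summed level was 15.52 and 15.61 (log2) on the unstimulated arrays and 15.34 on each zymosan array. Of 7 neutrophil markers 5 were higher with zymosan, and their summed level was 9.73 and 9.93 against 11.9 and 11.92. Of 5 B cell markers tested 2 were lower, and the summed level of the list was 9.71 and 10.27 against 9.2 and 9.08. With processing day modelled as a random block, 0 of these B cell markers were called by limma (Cd79b at adjusted p = 0.0607 and Ighm at 0.0721), while 4 macrophage markers were lower and 5 neutrophil markers higher. Without zymosan replicate 1 there were 2 macrophage markers lower and 3 neutrophil markers higher, and without zymosan replicate 2 there were 1 and 4. The dendritic cell list had 1 of 5 tested markers lower, and none of the T and NK cell, mast cell or stromal markers tested passed limma's threshold. The part of these shifts in the cytokine results was not tested, and in bulk RNA fewer cells of a type cannot be told apart from less RNA per cell.

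Il10, Ebi3 and Il6ra fell after zymosan, and 1 of the probe sets of Il10rb rose. Il6, Il12a, Il12b and Il23a stayed below the filter's level on all 4 arrays. That level is the 40th percentile of each array (4.36 to 4.39), and a probe set was tested when it reached the level on at least 2 arrays. Of the 14 probe sets, 8 were tested, from 5 genes (Il10, Ebi3, Il10ra, Il10rb and Il6ra). By limma's test, with p adjusted over all 27571 tested probe sets and a threshold of 0.05, 1 of the 8 was higher and 4 were lower, where 8.48% and 7.45% of all tested probe sets were higher and lower. The median difference of the 8 was -0.46, and that of all tested probe sets was -0.01. The values of the groups did not overlap at 6 of the 8, which is near the background, since this held for 60.6% of all tested probe sets (30.4% higher and 30.2% lower). Of the 6, 5 were lower and 1 was higher. Il10, among the lower ones, reached the level only on the unstimulated arrays. The members were chosen with earlier results of these data known, so these counts are a description.

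**Figure D1:**
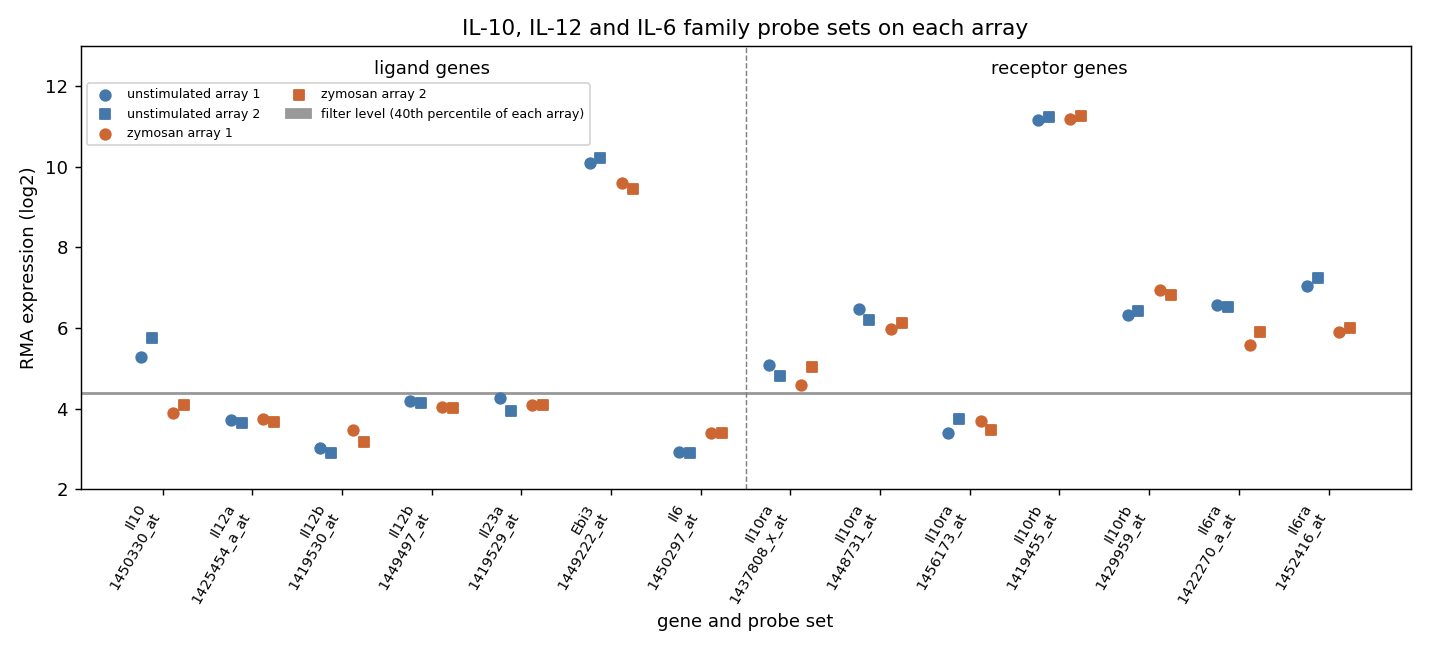
RMA expression (log2, vertical axis) of each of the 14 probe sets on each array, with blue for unstimulated, orange for zymosan, circles for array 1 and squares for array 2; the grey band is the filter's level. Il10 crosses the level from 5.29 and 5.74 to 3.9 and 4.1, while the probe sets of Il6, Il12a, Il12b and Il23a lie below it on all arrays; heights of different probe sets cannot be compared with each other.

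Among the ligands, Il10 had the larger fall. Its single probe set, 1450330_at, read 5.29 and 5.74 on the unstimulated arrays and 3.9 and 4.1 on the zymosan arrays. Both unstimulated arrays lay above the filter's level and both zymosan arrays below it. The mean was 5.51 ± 0.32 (SD, n = 2) without and 4.0 ± 0.14 (SD, n = 2) with zymosan. RMA assigns a value to absent transcripts too, so the fall was computed against the level and was at least 2.22-fold. The fitted difference was -1.52 (SE 0.18, 95% interval -1.96 to -1.07, adjusted p = 0.00747), which exceeded the gap of 0.46 between the unstimulated arrays. It uses the zymosan values below the level, and against the level the fall was at least 1.15 (log2). Il10 entered the test only through the unstimulated arrays, where it was high. A rise could hardly have been called, so the p-value is no independent support for a fall. Adjusted p was 0.0608 without zymosan replicate 1 and 0.058 without zymosan replicate 2. When processing day was modelled as a random block, it was 0.0189.

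Ebi3, the subunit that pairs with the Il27 product, was measured well above the level on every array. Its probe set, 1449222_at, read 10.1 and 10.22 in unstimulated and 9.59 and 9.45 in zymosan-treated cells. Every zymosan value was below every unstimulated value, and each gap within a group (0.12 and 0.14) was smaller than the gap between groups. Ebi3 fell by 0.64 on the log2 scale (SE 0.12, 95% interval -0.93 to -0.35, adjusted p = 0.021), from 10.16 ± 0.08 to 9.52 ± 0.1 (SD, n = 2 per group). The call was lost under the day block (adjusted p = 0.062), without zymosan replicate 1 (adjusted p = 0.103) and without zymosan replicate 2 (adjusted p = 0.168).

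Il6 read 2.91 and 2.89 in unstimulated and 3.4 and 3.39 in zymosan-treated cells at 1450297_at. The zymosan arrays were both higher, and all 4 arrays were below the level, so no fold is given. When all probe sets were tested without the filter, its difference was 0.49 (SE 0.1, adjusted p = 0.0388). The other ligands below the level belong to the interleukin-12 family. Il12a, the p35 subunit, read 3.72, 3.65, 3.75 and 3.67 (unstimulated arrays first), so the groups overlapped.

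Il12b, the p40 subunit shared by interleukin-12 and interleukin-23, was read by 2 probe sets that differed in sign. At 1419530_at it was 3.02 and 2.89 without and 3.48 and 3.18 with zymosan, a difference of 0.37 (95% interval 0.03 to 0.71, adjusted p = 0.18 in the fit without the filter). At 1449497_at it was 4.2 and 4.14 without and 4.05 and 4.02 with zymosan, a difference of -0.13 (95% interval -0.38 to 0.12, adjusted p = 0.527). Neither passed, and both lay below the level on all arrays. Il23a, the p19 subunit, read 4.26 and 3.94 without and 4.1 on each array with zymosan. Its zymosan values lay between the unstimulated ones.

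For 3 of the members that these results turn on, the 250 bases before the start of the gene are shown, so that the known regulatory motifs of Il6, whose transcript stayed below the level, can be set beside the promoters of Ebi3 and Il6ra, whose transcripts fell. The sequences are from RefSeq (GRCm38.p6), 5′ to 3′ on the strand of the gene. Capitals mark matches on either strand to any of 6 motifs: kappaB (bound by NF-kB), C/EBP (TTGNNCAAT), AP-1 (TGANTCA), a CRE half-site (TGACG), GAS (TTCNNNGAA, bound by STAT factors) and ISRE (bound by interferon regulatory factors).
Il6 (chr5:30012864-30013113, plus strand): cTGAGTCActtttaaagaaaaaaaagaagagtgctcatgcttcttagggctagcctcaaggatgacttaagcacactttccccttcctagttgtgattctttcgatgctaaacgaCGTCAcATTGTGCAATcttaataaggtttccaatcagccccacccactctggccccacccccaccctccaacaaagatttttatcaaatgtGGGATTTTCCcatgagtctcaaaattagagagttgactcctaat
Ebi3 (chr17:55952373-55952622, plus strand): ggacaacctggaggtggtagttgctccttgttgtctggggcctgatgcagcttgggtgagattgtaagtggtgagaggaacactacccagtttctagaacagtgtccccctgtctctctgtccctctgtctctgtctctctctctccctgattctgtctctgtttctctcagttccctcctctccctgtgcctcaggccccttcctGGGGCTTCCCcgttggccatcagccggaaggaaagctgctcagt
Il6ra (chr3:89913197-89913446, minus strand): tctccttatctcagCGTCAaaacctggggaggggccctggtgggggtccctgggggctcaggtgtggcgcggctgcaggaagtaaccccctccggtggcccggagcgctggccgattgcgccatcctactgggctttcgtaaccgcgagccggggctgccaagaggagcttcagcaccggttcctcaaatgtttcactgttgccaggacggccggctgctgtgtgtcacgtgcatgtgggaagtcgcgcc

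The Il6 window held an AP-1 match (TGAGTCA, from -249 to -243 before the start), a CRE half-site (CGTCA, -135 to -131), a C/EBP match (TTGTGCAAT, -128 to -120) that also matched on the other strand 1 base earlier, and a kappaB match (GGGATTTTCC, -44 to -35). The Ebi3 window held a kappaB match (GGGGCTTCCC, -44 to -35), and the Il6ra window a CRE half-site (CGTCA, -236 to -232). Among 32851 windows of this length in the table, 7.25% held the kappaB motif, 2.27% C/EBP, 6.75% AP-1, 17.8% the CRE half-site, 7.02% GAS and 2.98% ISRE. The windows of Il12b and of both starts of Il12a held no match to these letters. The matches are a description of the sequence and no measure of binding.

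Among the receptor genes, Il6ra, the ligand-binding chain for interleukin-6, fell at both of its probe sets. At 1452416_at it read 7.03 and 7.25 without and 5.9 and 5.99 with zymosan, a 2.28-fold fall (difference -1.19, SE 0.12, adjusted p = 0.00577). At 1422270_a_at it read 6.58 and 6.53 without and 5.58 and 5.91 with zymosan, a 1.76-fold fall (difference -0.81, SE 0.14, adjusted p = 0.0191). The groups did not overlap at either. Under the day block the first stayed past the threshold (adjusted p = 0.016) and the second did not (adjusted p = 0.0646). Without zymosan replicate 1 or zymosan replicate 2 neither passed (adjusted p = 0.0545 and 0.0567 for the first, 0.112 and 0.0685 for the second).

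Il10rb, the receptor chain that interleukin-10 shares with other cytokines of its family, gave unlike readings. At 1419455_at it read 11.16 and 11.23 without and 11.18 and 11.26 with zymosan, so the groups overlapped. The difference was 0.02 (SE 0.11, 95% interval -0.24 to 0.29, adjusted p = 0.912). At 1429959_at it read 6.33 and 6.42 without and 6.94 and 6.83 with zymosan, a 1.42-fold rise (difference 0.51, SE 0.11, adjusted p = 0.0341). The call at the second was lost under the day block (adjusted p = 0.0952), without unstimulated replicate 1 (adjusted p = 0.0672), without zymosan replicate 1 (adjusted p = 0.214) and without zymosan replicate 2 (adjusted p = 0.168).

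Il10ra, the chain specific for interleukin-10, did not pass at either tested probe set. At 1448731_at it read 6.48 and 6.21 without and 5.98 and 6.13 with zymosan (difference -0.29, 95% interval -0.63 to 0.05, adjusted p = 0.213). At 1437808_x_at the groups overlapped, with 5.08 and 4.82 without and 4.59 and 5.02 with zymosan (difference -0.14, 95% interval -0.59 to 0.3, adjusted p = 0.642). Its other probe set, 1456173_at, ran from 3.39 to 3.74, below the level on all arrays. These intervals leave room for a modest fall of Il10ra, so equal levels were not shown.

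**Figure D2:**
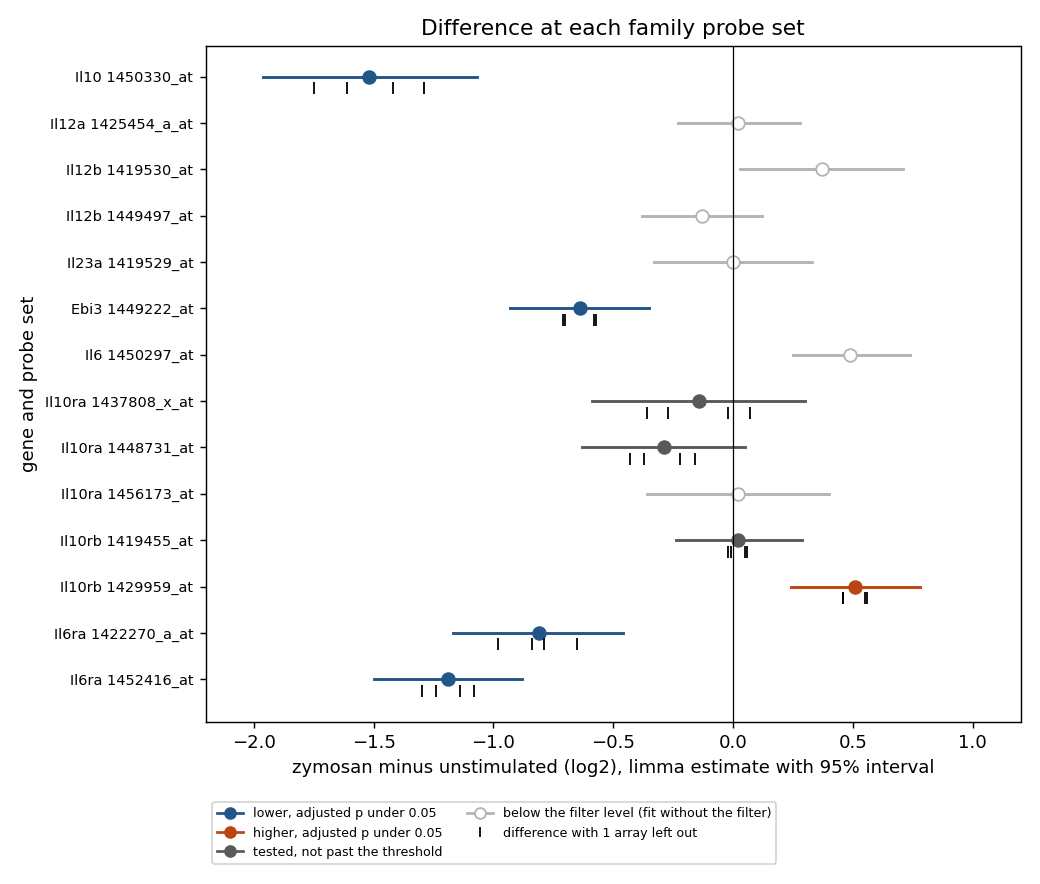
Difference between zymosan and unstimulated cells (log2, horizontal axis) at each of the 14 probe sets, with limma's 95% interval; ticks under the 8 tested probe sets are the differences with 1 array left out. The intervals of Il10, Ebi3 and both Il6ra probe sets lie below 0, and Il10 ranges from -1.75 to -1.29 when an array is left out.

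The direction of all 5 called differences stayed the same whichever array was left out. This was fixed in advance, since the groups did not overlap at these probe sets. Each fit with an array left out leaves 1 array in a group. Shares over all tested probe sets are not given for these fits. A call lost in them, here or elsewhere, therefore cannot be read as a trait of these genes. Leaving out zymosan replicate 1 or zymosan replicate 2 left 0 of the 8 probe sets past limma's adjusted threshold. In these fits, in that order, Il10 differed by -1.42 and -1.61, Ebi3 by -0.71 and -0.57, and Il10rb at 1429959_at by 0.46 and 0.56. Il6ra differed by -1.14 and -1.24 at 1452416_at and by -0.65 and -0.98 at 1422270_a_at. Under the day block, Il10 and the Il6ra probe set 1452416_at remained (2 lower of 8, where 3.4% of all probe sets were lower, 3.82% higher and 7.22% either). Each day held arrays of a single group, so a call kept under the block does not separate zymosan from day.

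**Figure D3:**
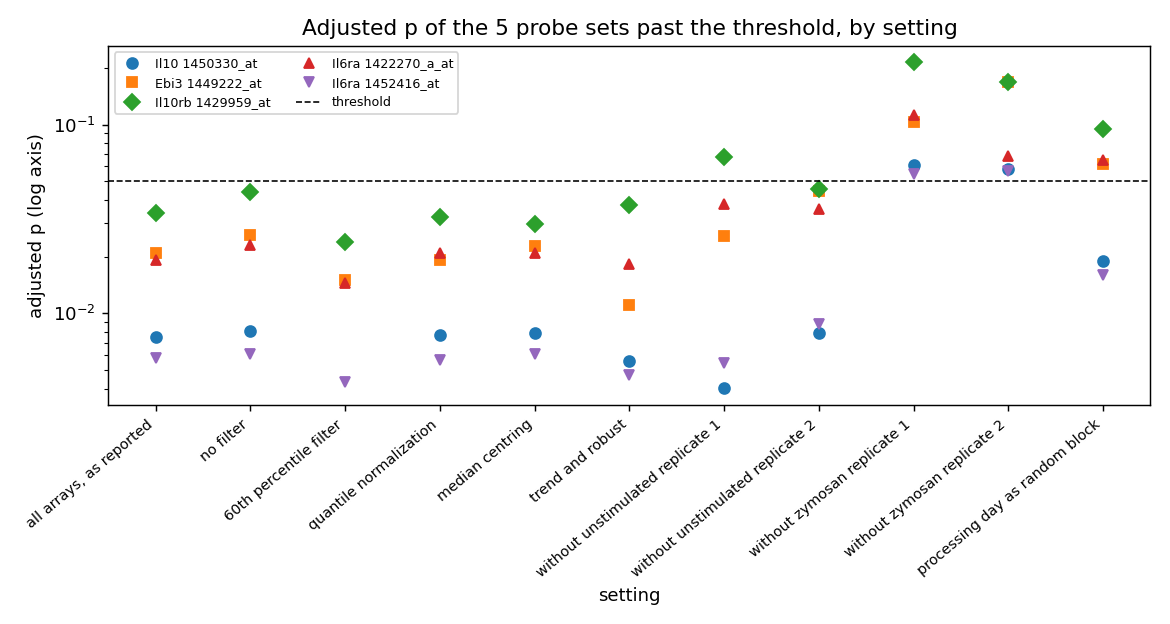
Adjusted p (log axis) of the 5 family probe sets past the threshold, for each setting of the analysis on the horizontal axis; the dashed line is the threshold of 0.05, and Il10 has no point at the stricter filter, which it did not pass. All points lie above the line when zymosan replicate 1 or 2 is left out, and under the day block 2 lie below it (0.0189 for Il10 and 0.016 for Il6ra).

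Genes of the same pathways were taken from 9 lists, and the probe set with the highest mean stood for each gene. The lists were chosen with earlier results of these data known, so their counts beside those of all genes are a description. Leaving the members aside, 68 of the 83 listed genes were tested, and 23 were higher and 4 lower, where 8.36% and 5.64% of all 13222 genes were higher and lower. Their median difference was 0.2, and that of all genes was 0.0. Under the day block 17 were higher and 2 lower. With either zymosan array left out, fewer listed genes passed limma's adjusted threshold in each direction. Shares over all genes are not given for those fits. Without unstimulated replicate 1, 22 were higher and 7 lower.

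**Figure D4:**
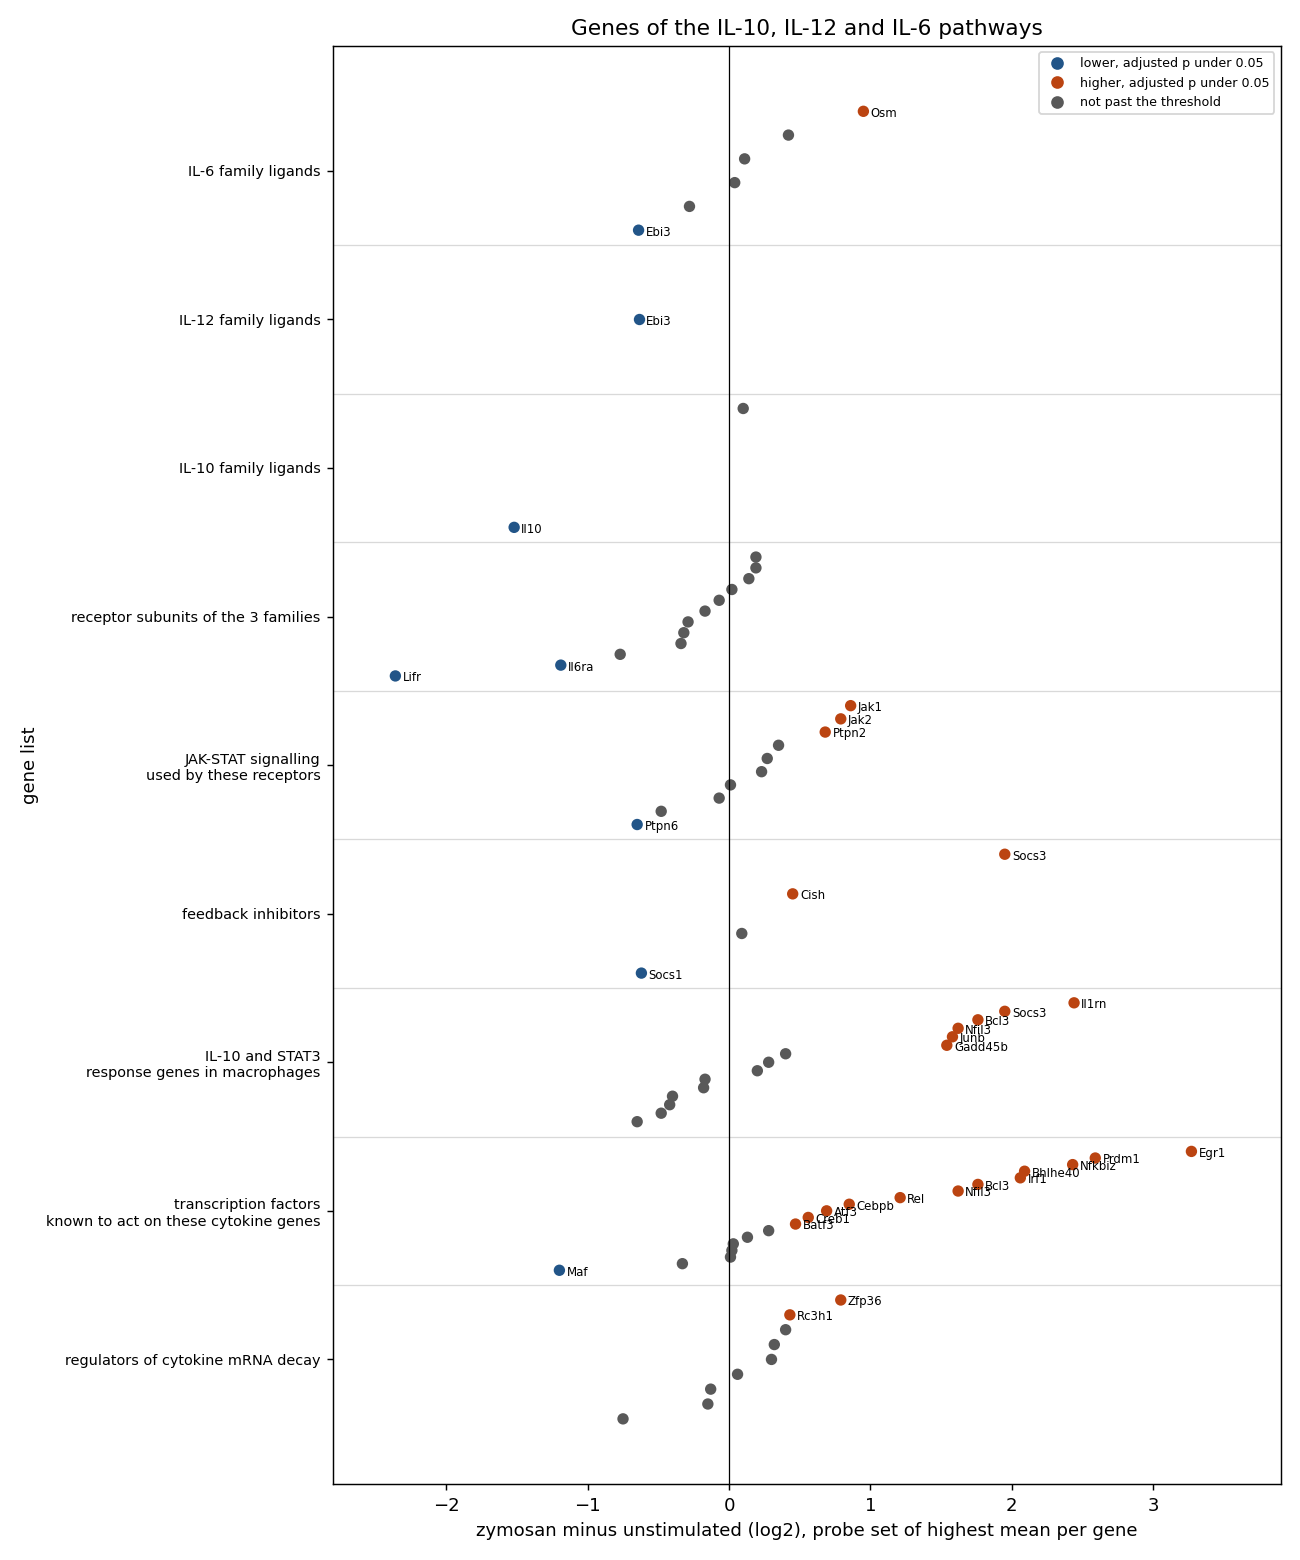
Difference between zymosan and unstimulated cells (log2, horizontal axis) for each tested gene of the 9 lists, 1 point per gene at its probe set of highest mean; height within a list only separates the points, and genes past the threshold carry their symbols. Most coloured points of the response and transcription factor lists lie to the right, with Maf at -1.2, while the receptor list has 2 to the left and none to the right.

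Of the ligand lists, the interleukin-6 family had 6 genes tested, with 1 higher and 1 lower. The higher one was Osm, which encodes oncostatin M, a gp130 cytokine made by macrophages. Osm read 7.04 and 7.41 without and 8.03 and 8.31 with zymosan (difference 0.95, SE 0.17, adjusted p = 0.0215). Its call was lost under the day block (adjusted p = 0.0582), without zymosan replicate 1 (adjusted p = 0.08) and without zymosan replicate 2 (adjusted p = 0.152). The lower one was Ebi3, which was also the single tested gene of the interleukin-12 family list. Of the interleukin-10 family list 2 were tested, Il10 and Il20, and Il20, named after its values were seen, did not pass (0.1, adjusted p = 0.619).

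Of 12 tested receptor subunits 2 were lower, none was higher and 10 did not pass, with a list median of -0.23. Besides Il6ra, Lifr, the receptor chain for leukemia inhibitory factor, fell at 1454984_at. It read 6.07 and 7.13 without and 3.82 and 4.65 with zymosan (difference -2.36, SE 0.41, adjusted p = 0.0193), and its arrays lay far apart within each group. The first of these zymosan values lay below the filter's level, so the size of the fall is uncertain. Another tested probe set of Lifr, 1450207_at, differed by 0.0 (adjusted p = 0.996). It read 4.41 and 4.5 without and 4.36 and 4.56 with zymosan, close to the level. The untested 1425107_a_at read 5.1 and 4.28 without and 3.63 and 3.5 with zymosan. Under the day block the call of Lifr was lost (adjusted p = 0.0512), as it was without zymosan replicate 1 (0.101) and zymosan replicate 2 (0.0671). Il6st, which encodes gp130, did not pass at its probe set of highest mean (-0.17, adjusted p = 0.452) or at 1437303_at (0.03, adjusted p = 0.882). It fell by 0.89 at 1421239_at (adjusted p = 0.0142) and by 0.82 at 1460295_s_at (adjusted p = 0.0303), and under the day block the first call was kept (adjusted p = 0.0371) and the second lost (adjusted p = 0.103). Its probe sets therefore split, and they were looked at after the values of the members were seen.

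The JAK-STAT list had 3 of 10 tested genes higher and 1 lower. It holds the kinases and transcription factors that carry these signals, and also phosphatases and PIAS proteins that act on them. Jak2 rose from 7.19 and 7.23 to 7.93 and 8.06 (difference 0.79, adjusted p = 0.011), and its other probe set rose by 0.85. Jak1 gave opposite readings, with 0.86 at the probe set of highest mean (adjusted p = 0.0116) and -1.11 at another (adjusted p = 0.0377). The first passed under the day block (adjusted p = 0.0359) and the second did not (adjusted p = 0.122). Ptpn2, a phosphatase that restrains JAK signals, was higher (0.68, adjusted p = 0.0373), at 1 of its 3 tested probe sets, and lost its call under the day block (adjusted p = 0.106). Ptpn6, which encodes the phosphatase SHP-1, was lower (-0.65, adjusted p = 0.0156) and was lower at both of its probe sets, of which the other lost its call under the day block (adjusted p = 0.11). Without zymosan replicate 1 or zymosan replicate 2, limma called 0 of these 10 genes. Stat3, the STAT factor of both interleukin-6 and interleukin-10, was named after its values were seen. It did not pass at its probe set of highest mean (-0.48, adjusted p = 0.064) and was higher at 1 of its other 3 (0.75, adjusted p = 0.0123).

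The 4 feedback inhibitors moved both ways. Socs3, which blocks signalling from gp130 after interleukin-6, rose at all 3 of its probe sets, by 0.83 to 2.09, and the call at the probe set with 2.09 was lost under the day block (adjusted p = 0.0748). At its probe set of highest mean, 1455899_x_at, it read 5.69 and 6.06 without and 7.83 on each array with zymosan (difference 1.95, SE 0.15, adjusted p = 0.00293). Cish was higher by 0.45 (adjusted p = 0.0431), a call that did not hold in 7 of 10 alternatives. Socs1 fell at least 1.47-fold to below the filter's level, from 4.86 and 4.97 to 4.28 and 4.32 (adjusted p = 0.0187). Like Il10, it was tested only through the unstimulated arrays. Under the day block its adjusted p was 0.054.

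Of 15 genes known to respond to interleukin-10 and STAT3 in macrophages, 6 were higher, none was lower and 9 did not pass, at the probe set of highest mean. At other probe sets, Il4ra was lower (-0.91 at 1423996_a_at, adjusted p = 0.0184) and Etv3 higher (1.01 at 1456358_at, adjusted p = 0.0121). Stat3, also on this list, was higher at another probe set as given above. Il4ra and Etv3 were named after their values were seen. Il1rn, the interleukin-1 receptor antagonist, read 7.64 and 7.41 without and 9.98 and 9.96 with zymosan (difference 2.44, SE 0.12, adjusted p = 0.00136). Bcl3, a nuclear relative of the NF-kB inhibitors, rose by 1.76 and the AP-1 subunit gene Junb by 1.58. Socs3 is also on this list, and Nfil3 (1.62) and Gadd45b (1.54), named after their values were seen, complete the 6. All 6 remained past the threshold under the day block, but not all of them did with either zymosan array left out. Without unstimulated replicate 1 the list had 6 higher and 2 lower.

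Of 19 tested transcription factors known to act on these cytokine genes, 12 were higher and 1 was lower, with a median of 0.69. Egr1 rose by 3.27 (adjusted p = 0.00206), from 5.04 and 5.57 to 8.68 and 8.46. Bhlhe40 rose by 2.09 (adjusted p = 0.00184), from 7.44 and 7.26 to 9.47 and 9.4. Irf1, an activator of Il12a and Il12b transcription, rose by 2.06 (adjusted p = 0.00206). Prdm1 (2.59, adjusted p = 0.00216) and Creb1 (0.56, adjusted p = 0.0307), named after their values were seen, were also higher. Creb1 was lower at another probe set (-0.46, adjusted p = 0.0368), and both of its calls were lost under the day block (adjusted p = 0.0797 and 0.102). Whether any of the listed factors acted on Il10 here was not tested. Maf, also named after its values were seen, was the single gene lower. It read 11.4 and 11.87 without and 10.4 and 10.48 with zymosan (difference -1.2, SE 0.17, adjusted p = 0.0125), and 5 of its 6 probe sets fell, of which 2 lost their call under the day block (adjusted p = 0.0857 and 0.0907). Of these factors 10 were higher and 1 lower under the day block, 7 and 0 without zymosan replicate 1, and 8 and 0 without zymosan replicate 2.

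Of 9 tested regulators of cytokine mRNA decay, 2 were higher, none was lower and 7 did not pass. Zfp36, which encodes tristetraprolin, a protein that speeds the decay of many cytokine mRNAs, rose from 8.69 and 8.72 to 9.57 and 9.42 (difference 0.79, SE 0.11, adjusted p = 0.0116). Rc3h1, which encodes the decay factor Roquin-1, rose by 0.43 (adjusted p = 0.0487). Its call was lost without the filter (adjusted p = 0.0642) and under the day block (adjusted p = 0.132). Zc3h12a, which encodes Regnase-1, an RNase that cuts Il6 mRNA, did not pass at either probe set (0.06, adjusted p = 0.784, and -0.28, adjusted p = 0.226); it was named after its values were seen.

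The genes whose values over the 4 arrays were most like those of each called member were found by Euclidean distance after each probe set was centred on its own mean. For Il10 these were Rnd3, Pi4kb and Sncaip, at distances of 0.1 to 0.19 on the log2 scale. For Ebi3 they were Cmip, Galnt4 and Orai1 (0.04 to 0.05), and for Il6ra Ggact, Rassf2 and Ms4a6b (0.03 to 0.07). For the Il10rb probe set of highest mean, which did not differ past the threshold, they were Rab3a, Glo1 and Dpf2 (0.01 each). With 4 arrays and 13222 genes, such closeness is a description.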

How the data were processed

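Total RNA was hybridised to 4 Affymetrix Mouse430_2 arrays. The deposited values are log2 expression values that the authors made with RMA, per the submitters' processing notes; for the RMA version, the set of arrays normalized together and the genome build, the sources used here give nothing. The scanner's settings files, whose entries are of other kinds, gave the chip type and processing day, per the file headers. No other column of values was present.

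Of 45037 probe sets other than 64 controls, 34945 had 1 gene symbol in the platform annotation, 932 several and 9160 none. Probe sets at or above the 40th percentile on at least 2 arrays (27571) entered a linear model in limma 3.58.1 (R 4.3.3; lmFit, then eBayes), 2-sided, with Benjamini-Hochberg adjustment over all of them. An exact permutation of 2 arrays against 2 could not pass the threshold. The pipeline was run on simulated data with independent noise on each array. These held no effect of day, operator or project, so that run is no check on such effects. SDs are over 2 arrays, SEs are limma's moderated ones, and the number of arrays limits precision. The alternatives were other filters, normalizations and variance models, leaving out each array, another probe set per gene, and the processing day as a random block. For the block, duplicateCorrelation gave no value with 3 days, so the correlation within a day was pooled over probe sets (0.448). It sets the spread of the zymosan pair, which shared a day, against that of the unstimulated pair, which did not. Unequal spread of the groups therefore enters it as well as any effect of day. Summed marker levels are the log2 of summed linear values.

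The members, lists and tests were chosen with earlier results of these data known. Named genes are all members and, per pathway list, up to 4 genes of smallest p among those past the threshold, plus the 3 nearest genes by distance for each called member; exceptions are stated. Promoter sequences are from RefSeq, and 5 of the 9 measured members had an entry.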

Additional observations from a re-analysis of the deposited data

How the results depend on the processing

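The counts of family probe sets and genes past the threshold stayed within 1.5 times of those reported under the 60th percentile filter, quantile normalization, median centring and eBayes with trend and robust settings. Without the filter, 2 member probe sets were higher, since Il6 was added. When 1 array was left out, limma called 0 to 1 member probe sets higher, 0 to 4 lower and 0 to 4 member genes, and 10 to 22 pathway genes higher and 0 to 7 lower. Without zymosan replicate 1 or zymosan replicate 2, 0 member probe sets passed, and without unstimulated replicate 1, 0 were higher (the Il10rb probe set 1429959_at had adjusted p = 0.0672). Across the fits with 1 array left out, the difference ran from -1.75 to -1.29 at Il10 and from -0.71 to -0.57 at Ebi3. At Il6ra it ran from -1.3 to -1.08 (1452416_at) and from -0.98 to -0.65 (1422270_a_at). At the Il10rb probe set 1429959_at it ran from 0.46 to 0.56. Under the day block, limma called 0 member probe sets higher, 2 lower, 2 member genes and 2 pathway genes lower. Differences that missed the threshold changed sign at the Il10ra probe set 1437808_x_at (-0.36 to 0.07 when 1 array was left out) and the Il10rb probe set 1419455_at (-0.02 to 0.06). The cause of these changes was not tested. With the probe set of lowest p for each gene, 27 pathway genes were higher and 6 lower. No paired analysis was possible because the labels give the arrays of the groups no shared replicate numbers. With 2 arrays per group, values below the filter's level have no reliable order.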

Other observations

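Il10 lies on its chromosome in a row with other genes of its family, in the order Il24, Il20, Il19, Il10 and then Mapkapk2, a kinase gene that acts on cytokine mRNA stability (order from RefSeq, GRCm38.p6). Of these neighbours, Il20 read 5.59 and 5.38 without and 5.54 and 5.64 with zymosan and did not pass limma's test (adjusted p = 0.619). Mapkapk2 read 8.94 and 9.26 without and 9.41 and 9.44 with zymosan (difference 0.32, adjusted p = 0.182). Il24 lay below the filter's level on all arrays, from 3.66 to 4.14, and Il19 was not analysed here. Farther on the side of Mapkapk2, Dyrk3 was lower (-0.72, adjusted p = 0.0187), Eif2d did not pass at any of its 4 tested probe sets, both probe sets of Rassf5 were lower (-0.75 and -0.79), Ikbke was higher (0.74, adjusted p = 0.0139), and Srgap2 was lower at 1 of its 4 (-1.69, adjusted p = 0.0121). The genes around Il10 thus showed differences in both directions.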
